A study of Mus musculus with 12 samples.

Results

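Livers build triglyceride by adding 3 fatty acyl chains to a glycerol backbone in 4 enzymatic steps, and the data described here are the liver mRNA levels of 9 genes that encode enzymes of these steps. The genes were chosen by name, with earlier results of these data known. Members of the list are *Gpam* and *Gpat4*, *Agpat2* and *Agpat3*, *Lpin2* and *Lpin3*, *Dgat1* and *Dgat2*, and *Mogat1*. They are 9 of the 48795 genes in the table, and all 9 were among the 13812 genes with enough counts to be tested. RNA was sequenced from whole livers of 12 female mice on normal chow, aged 4 months and described as littermates, with 3 in each of 4 groups. Of the *Nts*+/+ mice, 254, 257 and 323 had food ad libitum and 265, 282 and 322 went without food for 22 h. Of the *Nts*-/- mice, 277, 303 and 319 had food ad libitum and 284, 290 and 295 went without it for 22 h. The *Nts*-/- label stands for a whole-body deletion of the gene for neurotensin, a gut peptide hormone that promotes fat absorption, so a difference in liver need not arise in liver. The *Nts* counts, given with the depths below, went against these labels.

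The first step joins an acyl chain to glycerol-3-phosphate and makes lysophosphatidic acid. It is run in mitochondria by the product of *Gpam* (also called GPAT1), which is known as a target of insulin and SREBP-1c, and in the endoplasmic reticulum by the product of *Gpat4*. *Agpat2* and *Agpat3* encode acyltransferases that turn lysophosphatidic acid into phosphatidic acid. Loss of *Agpat2* causes lipodystrophy in mice and humans, while the *Agpat3* enzyme also prefers polyunsaturated chains and feeds membrane phospholipids. The lipins, here *Lpin2* and *Lpin3*, remove the phosphate and leave diacylglycerol. *Dgat1* and *Dgat2* encode unrelated enzymes that add the last acyl chain, and in liver DGAT2 is known for using newly made fatty acids while DGAT1 is known for re-esterifying fatty acids that arrive from outside. *Mogat1* encodes a monoacylglycerol acyltransferase, which makes diacylglycerol by a side route that skips the phosphate intermediates. In a fasted liver fatty acids released by adipose tissue arrive in large amounts, and they are oxidized, made into ketone bodies, or re-esterified and stored or exported.

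On GRCm38, the build of the table, *Gpam* (ENSMUSG00000024978) lies at chr19:55069734-55099451, *Gpat4* (ENSMUSG00000031545) at chr8:23171265-23208346 and *Agpat2* (ENSMUSG00000026922) at chr2:26593057-26604417. *Agpat3* (ENSMUSG00000001211) lies at chr10:78269178-78352489, *Lpin2* (ENSMUSG00000024052) at chr17:71182560-71249817 and *Lpin3* (ENSMUSG00000027412) at chr2:160880670-160906002. *Dgat1* (ENSMUSG00000022555) lies at chr15:76502015-76511951, *Dgat2* (ENSMUSG00000030747) at chr7:99153658-99182719 and *Mogat1* (ENSMUSG00000012187) at chr1:78510991-78538173. The values sum over each whole gene and all its exons. *Agpat2* shares positions with *Egfl7*, which held 232 to 486 counts per mouse against 3965 to 8825 for *Agpat2*. The other 6 genes that overlap a member held at most 4 counts in any mouse. Whether counting used the strand is not given in the sources used here, so *Agpat2* and *Egfl7* may share reads.

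The set of RefSeq start sites used here covered 6 of the 9 genes, *Gpam*, *Agpat2*, *Agpat3*, *Lpin2*, *Lpin3* and *Mogat1*. That set held no entry under the names *Gpat4*, *Dgat1* and *Dgat2*, which does not show that RefSeq lacks them. The 6 genes had 10 start sites in all (GRCm38.p6). The sequences upstream of 4 of these start sites are shown because they belong to the gene with the largest rise on fasting, *Mogat1*, to a gene that rose with a wide spread between mice, *Lpin2*, and to the gene of the first step whose mean did not pass the test, *Gpam*. Each is the part of the 250 bases before a start site that lies outside annotated exons of the gene, read 5′ to 3′ on the gene's own strand. The start site of *Lpin2* nearest to the gene's 5′ end in the table is not shown because all its 250 upstream bases lie in an annotated exon, and of the start sites of *Gpam* the nearest one is shown. Capitals mark a match to 1 of 7 short motifs, searched on both strands.
*Gpam* (chr19:55099502-55099727, minus strand, ending at base -25): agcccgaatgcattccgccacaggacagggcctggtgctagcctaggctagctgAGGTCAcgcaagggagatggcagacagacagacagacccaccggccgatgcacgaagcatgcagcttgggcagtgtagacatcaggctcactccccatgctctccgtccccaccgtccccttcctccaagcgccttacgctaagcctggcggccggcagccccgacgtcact
*Mogat1* (chr1:78510810-78510990, plus strand, ending at base -70): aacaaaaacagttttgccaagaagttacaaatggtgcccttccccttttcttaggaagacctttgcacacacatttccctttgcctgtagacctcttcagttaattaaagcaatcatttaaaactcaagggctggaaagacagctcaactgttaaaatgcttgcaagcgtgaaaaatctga
*Lpin2*, the second start site (chr17:71183745-71183977, plus strand, ending at base -1): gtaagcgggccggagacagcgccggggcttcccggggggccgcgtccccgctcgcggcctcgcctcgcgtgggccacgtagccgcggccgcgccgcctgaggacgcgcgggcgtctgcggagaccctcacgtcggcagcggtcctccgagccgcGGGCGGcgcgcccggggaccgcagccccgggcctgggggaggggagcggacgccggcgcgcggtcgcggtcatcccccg
*Lpin2*, the third start site (chr17:71204404-71204653, plus strand, ending at base -1): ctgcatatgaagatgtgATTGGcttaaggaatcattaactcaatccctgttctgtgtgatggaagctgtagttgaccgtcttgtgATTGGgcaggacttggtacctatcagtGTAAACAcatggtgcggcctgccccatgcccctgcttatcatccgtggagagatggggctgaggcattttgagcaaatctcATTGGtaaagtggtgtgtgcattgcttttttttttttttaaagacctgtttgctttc

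The motifs were CACGTG (an E-box), TCACNCCAC (the core of a sterol element), AGGTCA (a nuclear receptor half-site), GTAAACA (a FoxO motif), TGACGTCA (a cAMP response element), CCAAT and GGGCGG (an Sp1 motif). Among all 32851 start sites in the RefSeq table, the 250 upstream bases held CACGTG in 6.02%, TCACNCCAC in 1.05%, AGGTCA in 14.0%, GTAAACA in 3.17%, TGACGTCA in 1.55%, CCAAT in 33.8% and GGGCGG in 32.7%. In the stretches shown, *Gpam* held 1 AGGTCA, the second start site of *Lpin2* held 1 GGGCGG, and the third held GTAAACA and 3 copies of ATTGG, the reverse complement of CCAAT. The window of the nearest *Lpin2* start site, not shown, held CACGTG and GGGCGG. The *Mogat1* stretch held none of the 7 motifs. These matches describe letters in short windows and say nothing of which factors bind there.

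Depth was 21999656 to 27297486 counts per mouse in fed *Nts*+/+ livers, 23040688 to 36018411 in fasted *Nts*+/+ livers, 24051013 to 34316287 in fed *Nts*-/- livers and 23048879 to 45273081 in fasted *Nts*-/- livers. Levels are given as CPM, which divides counts by library size after TMM normalization. A floor of 3 counts corresponds to 0.0663 to 0.136 CPM before TMM normalization. The first principal component (41.7% of the variance) separated all fed from all fasted livers, while the second (10.2%) divided the fed livers into 254, 257 and 319 (14.9 to 27.4) and 323, 277 and 303 (-36.6 to -13.7), each with mice of both labels. The check of the targeted gene went against the labels. *Nts* had 0 counts in all 6 libraries labelled *Nts*+/+, and it had 46, 40 and 15 counts in the fed and 12, 4 and 18 counts in the fasted libraries labelled *Nts*-/-. The cause was not tested, and *Nts*+/+ and *Nts*-/- livers below are those so labelled. Hepatocyte markers summed to between 111100 and 145200 CPM in every liver.

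Fasting raised 5 of the 9 genes and lowered 1 when both genotypes were averaged (edgeR quasi-likelihood test, Benjamini-Hochberg adjusted p under 0.05 over all 13812 genes). The genes that rose were *Gpat4*, *Agpat3*, *Lpin2*, *Dgat1* and *Mogat1*, and the gene that fell was *Dgat2*. Among the 9, each of the 4 steps thus had 1 gene that rose, with *Mogat1* on the side route. That pattern depends on the choice of genes, since outside the 9 the first-step gene *Gpat3* also rose and *Gpat2* fell. Over all genes, 16% were called higher and 16.8% lower in the same comparison. The median log2 fold change was 0.81 over the 9 genes and -0.0071 over all genes tested. Since the 9 were chosen with earlier results of these data known, this contrast is a description only. Within *Nts*+/+ livers 5 of the 9 passed as higher and 0 as lower, against 8.91% and 9.19% of all genes. *Dgat2* was the one gene lower there at an unadjusted p under 0.05, and DESeq2 also called 0 lower. Within the livers labelled *Nts*-/-, 4 passed as higher and 1 as lower, against 7.7% and 9.14% of all genes. The median of the 9 was 0.80 in *Nts*+/+ and 0.82 in *Nts*-/- livers. These are whole-liver values, in which fewer cells of a type and less RNA per cell cannot be told apart.

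**Figure D1:**
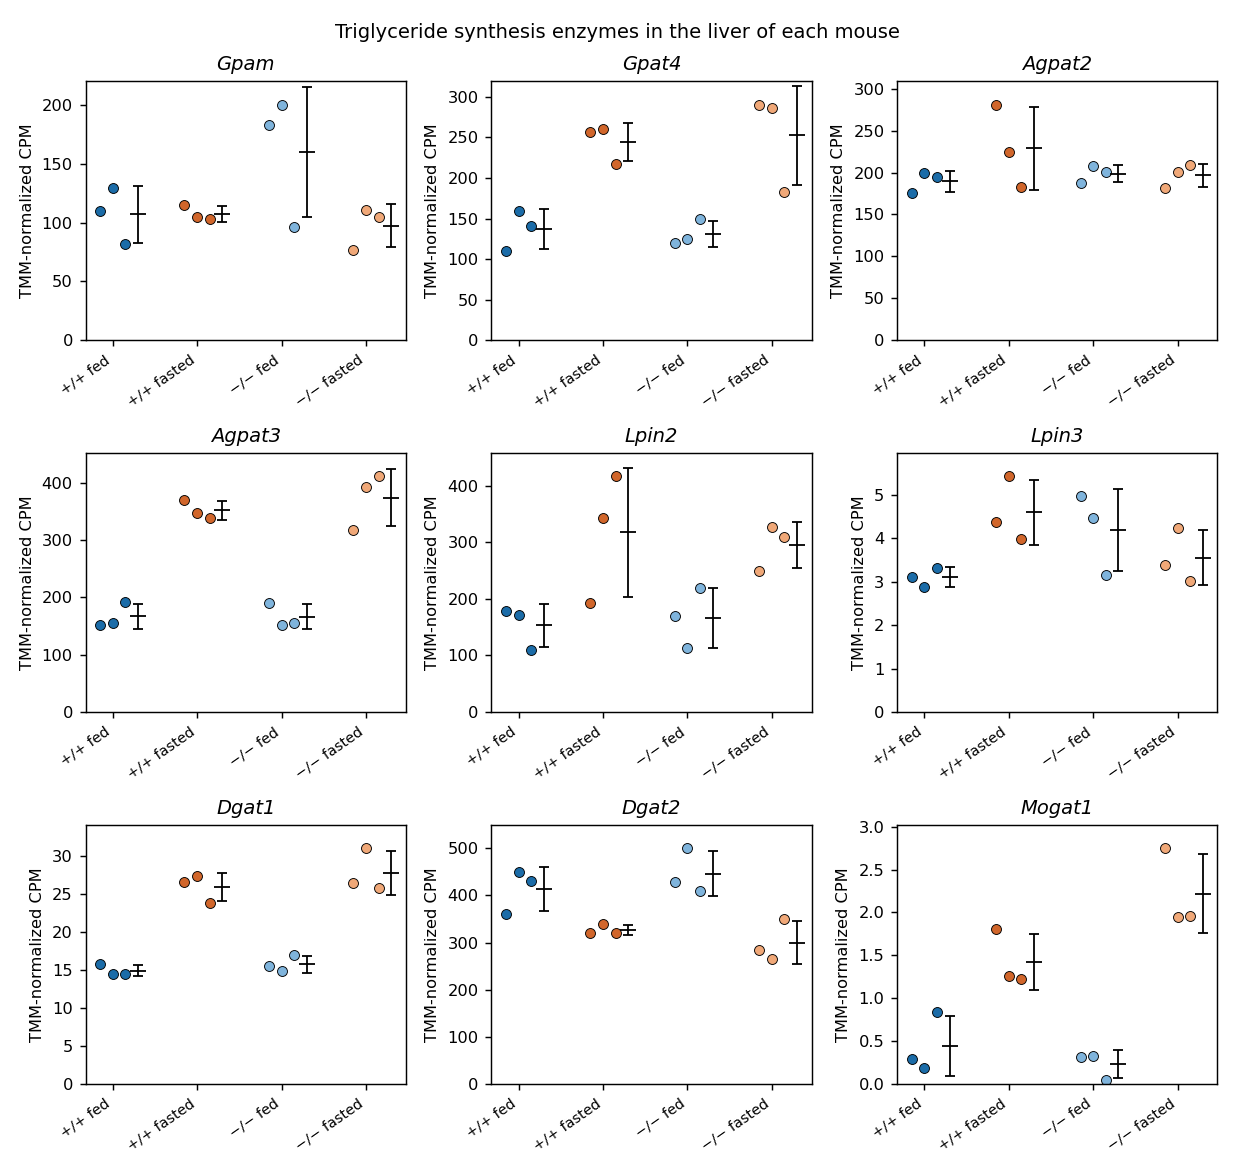
TMM-normalized CPM of the 9 genes in each liver. Each point is a mouse, the horizontal mark the mean and the bar 1 SD of 3 mice, and the axes start at 0. *Agpat3* and *Dgat1* form a low fed and a high fasted band that do not touch, *Dgat2* shows the opposite order, and *Gpam* in fed *Nts*-/- livers ranges from 96.6 to 200 CPM.

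Levels of different genes were compared per kilobase of the longest annotated transcript. *Dgat2* had the highest level in every group, with 144 ± 16.1 CPM per kb in fed *Nts*+/+ livers and 155 ± 16.6 in fed *Nts*-/- livers (mean ± SD, n = 3). *Agpat2* followed with 75.7 ± 5.06 and 79.3 ± 4.12 CPM per kb. These 2 genes did not overlap in 3 of the 4 groups, but in fasted *Nts*+/+ livers *Dgat2* (114 ± 4.00) and *Agpat2* (91.4 ± 19.8) overlapped. *Lpin2*, *Gpat4* and *Agpat3* formed a middle group whose ranges overlapped in all 4 groups, at 21.7 to 26.5 CPM per kb in the fed means and 42.5 to 50.3 in the fasted means. *Gpam* lay under them at 14.0 ± 3.12 CPM per kb in fed *Nts*+/+ livers. In fed *Nts*-/- livers (20.9 ± 7.23) it overlapped *Lpin2*, *Gpat4* and *Agpat3*, and in fasted *Nts*-/- livers (12.7 ± 2.37) it overlapped *Dgat1*. *Dgat1* stood at 4.84 ± 0.235 CPM per kb in fed and 8.43 ± 0.591 in fasted *Nts*+/+ livers. *Lpin3* and *Mogat1* were the 2 lowest in each group. Their order changed, with *Lpin3* above *Mogat1* in fed *Nts*+/+ livers (0.798 ± 0.0586 against 0.356 ± 0.284) and *Mogat1* above *Lpin3* in fasted *Nts*-/- livers (1.79 ± 0.370 against 0.915 ± 0.161), in both cases without overlap.

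**Figure D2:**
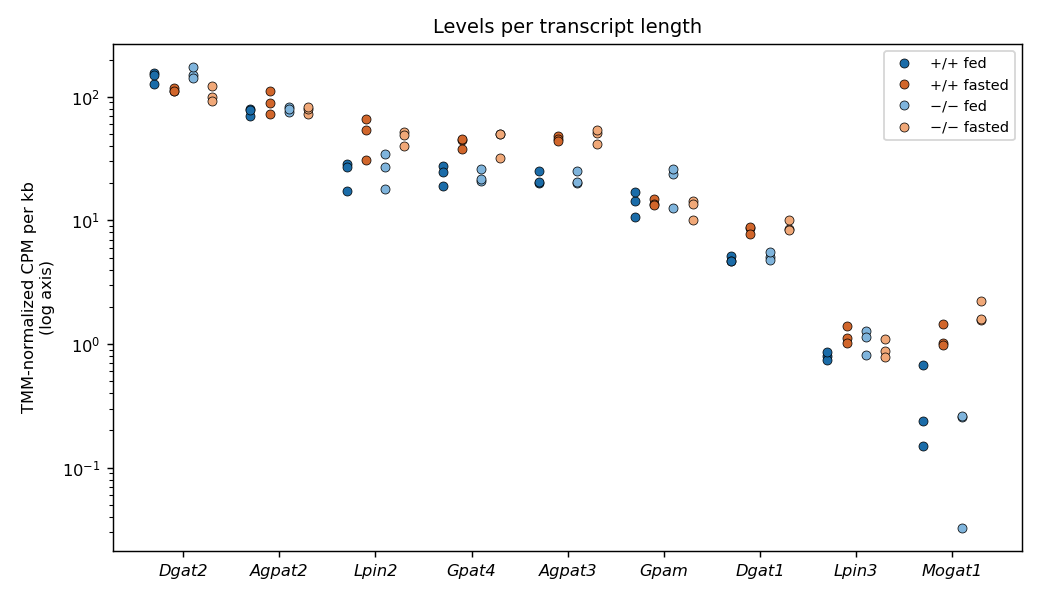
Level of each gene per kilobase of its longest transcript, as TMM-normalized CPM per kb on a log axis, by group. Points are mice, and the order from *Dgat2* at the top to *Lpin3* and *Mogat1* at the bottom spans from 174 to 0.0325 CPM per kb.

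Of the acyltransferases that start the pathway, *Gpat4* rose with fasting and *Gpam* did not pass the test. *Gpat4* measured 110, 159 and 141 CPM in fed and 256, 260 and 217 CPM in fasted *Nts*+/+ livers, and 119, 124 and 149 CPM in fed and 290, 286 and 183 CPM in fasted *Nts*-/- livers. Every fasted liver lay above every fed liver, although fasted mouse 295 stood well under its group. The log2 fold change was 0.84 in *Nts*+/+ (SE 0.19, adjusted p = 0.00852), 0.95 in *Nts*-/- (SE 0.19, adjusted p = 0.0044) and 0.89 as the mean (SE 0.13, adjusted p = 0.000233), a 1.86-fold rise. *Gpam* measured 110, 129 and 81.6 CPM in fed and 115, 104 and 103 CPM in fasted *Nts*+/+ livers. In the livers labelled *Nts*-/- it measured 182, 200 and 96.6 CPM when fed and 76.6, 111 and 105 CPM when fasted. Mice 277 and 303 were thus above all other livers, while mouse 319, also fed and labelled *Nts*-/-, lay among the fasted livers. *Gpam*'s log2 fold change on fasting was 0.0047 in *Nts*+/+ (SE 0.25, 95% interval -0.53 to 0.54) and -0.72 in *Nts*-/- (SE 0.25, adjusted p = 0.0649), with a mean of -0.36 (SE 0.17, adjusted p = 0.138). The outcome for *Gpam* depended on which mice were included and on the test. Leaving out 1 mouse gave -0.97 to -0.51 in *Nts*-/-. Without mouse 319 the value in *Nts*-/- was -0.97 (adjusted p = 0.00448) and the mean was -0.48 (adjusted p = 0.0119), and DESeq2 called a fall in *Nts*-/- with all mice (-0.70, adjusted p = 0.0267).

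At the next step *Agpat3* rose 2.17-fold and *Agpat2* did not pass the test. *Agpat3* measured 152, 156 and 193 CPM in fed and 370, 348 and 338 CPM in fasted *Nts*+/+ livers, and 191, 153 and 156 CPM in fed and 317, 393 and 411 CPM in fasted *Nts*-/- livers. The lowest fasted liver, 317 CPM, was far above the highest fed liver, 193 CPM. Its log2 fold change was 1.08 in *Nts*+/+ (SE 0.15, adjusted p = 0.000429), 1.17 in *Nts*-/- (SE 0.15, adjusted p = 0.00019) and 1.12 as the mean (SE 0.10, adjusted p = 5.21e-06). *Agpat2* measured 175, 199 and 194 CPM in fed and 281, 224 and 182 CPM in fasted *Nts*+/+ livers, and 187, 208 and 201 CPM in fed and 182, 200 and 208 CPM in fasted *Nts*-/- livers. Apart from fasted mice 265 and 282, all livers lay between 175 and 208 CPM. The mean log2 fold change of *Agpat2* was 0.13 (SE 0.10, 95% interval -0.096 to 0.35, adjusted p = 0.373), and it was 0.27 in *Nts*+/+ (adjusted p = 0.222) and -0.015 in *Nts*-/- (adjusted p = 0.959).

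*Lpin2*, the more abundant of the lipins described here, rose on average but with a wide spread between mice. Its levels were 179, 172 and 109 CPM in fed and 193, 343 and 416 CPM in fasted *Nts*+/+ livers, and 170, 113 and 219 CPM in fed and 250, 326 and 310 CPM in fasted *Nts*-/- livers. Within each genotype the fed and fasted livers did not overlap, but fasted *Nts*+/+ mouse 265 (193 CPM) lay under fed *Nts*-/- mouse 319 (219 CPM). The mean log2 fold change was 0.94 (SE 0.21, adjusted p = 0.00553), with 1.05 in *Nts*+/+ (SE 0.30, adjusted p = 0.0323) and 0.82 in *Nts*-/- (SE 0.30, adjusted p = 0.0822). The call in *Nts*+/+ was lost when any 1 of mice 254, 257, 323, 282 or 322 was left out (adjusted p = 0.0625, 0.0666, 0.0895, 0.103 and 0.104), with no count filter (adjusted p = 0.0919) and in a fit of the 6 mice alone (adjusted p = 0.0567). In *Nts*-/- it passed with DESeq2 (adjusted p = 0.0209), in a fit of the 6 mice alone (adjusted p = 0.0447), and without mouse 265 or 319 (adjusted p = 0.0375 and 0.0457). *Lpin3* was low, with 74 to 188 counts per mouse. It measured 3.10, 2.87 and 3.33 CPM in fed and 4.36, 5.42 and 3.99 CPM in fasted *Nts*+/+ livers, against 4.97, 4.45 and 3.14 CPM in fed and 3.39, 4.24 and 3.02 CPM in fasted *Nts*-/- livers. Fed and fasted *Nts*+/+ livers did not overlap, while those labelled *Nts*-/- did. The log2 fold changes of *Lpin3* were 0.57 in *Nts*+/+ (SE 0.21, adjusted p = 0.0836) and -0.25 in *Nts*-/- (SE 0.21, adjusted p = 0.462), with a mean of 0.16 (SE 0.15, adjusted p = 0.452).

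The enzymes of the final step moved in opposite directions. *Dgat1* measured 15.8, 14.5 and 14.5 CPM in fed and 26.7, 27.4 and 23.9 CPM in fasted *Nts*+/+ livers, and 15.5, 14.8 and 17.0 CPM in fed and 26.5, 31.1 and 25.9 CPM in fasted *Nts*-/- livers. Spread within a group was small, and the highest fed liver was 17.0 CPM against 23.9 CPM for the lowest fasted one. Its log2 fold change was 0.80 in *Nts*+/+ (SE 0.12, adjusted p = 0.000605), 0.82 in *Nts*-/- (SE 0.12, adjusted p = 0.000415) and 0.81 as the mean (SE 0.082, adjusted p = 1.07e-05), a 1.75-fold rise. *Dgat2* measured 361, 449 and 431 CPM in fed and 320, 340 and 319 CPM in fasted *Nts*+/+ livers, and 428, 500 and 410 CPM in fed and 284, 265 and 351 CPM in fasted *Nts*-/- livers. All 6 fasted livers were under all 6 fed livers, the closest being fasted mouse 295 (351 CPM) and fed mouse 254 (361 CPM). The mean log2 fold change of *Dgat2* was -0.46 (SE 0.10, adjusted p = 0.0036), a level 1.37-fold lower, with -0.34 in *Nts*+/+ (SE 0.14, adjusted p = 0.114) and -0.57 in *Nts*-/- (SE 0.14, adjusted p = 0.0148). The call in *Nts*-/- was lost without mouse 303, 284 or 290 (adjusted p = 0.0746, 0.0666 and 0.0731). Even in fasted livers *Dgat2* stayed above *Dgat1* by a wide margin per kilobase.

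*Mogat1*, the enzyme of the monoacylglycerol route, had the largest fold change of the 9 genes and the lowest counts, 1 to 83 per mouse. It measured 0.295, 0.184 and 0.842 CPM in fed and 1.80, 1.26 and 1.22 CPM in fasted *Nts*+/+ livers, and 0.317, 0.326 and 0.0403 CPM in fed and 2.75, 1.95 and 1.96 CPM in fasted *Nts*-/- livers. The fed value of mouse 319 came from 1 count, and its exact Poisson 95% interval, which covers counting error only, was 0.00102 to 0.224 CPM. Fasted livers were all above fed livers, fed mouse 323 (0.842 CPM) being the nearest to them. The log2 fold change was 1.71 in *Nts*+/+ (SE 0.52, adjusted p = 0.0361), 3.20 in *Nts*-/- (SE 0.54, adjusted p = 0.00152) and 2.45 as the mean (SE 0.38, adjusted p = 0.000277). In *Nts*+/+ it was 2.54 without mouse 323 (adjusted p = 0.00796) and did not pass without mouse 254, 257, 265 or 282 (adjusted p = 0.134, 0.126, 0.0900 and 0.0735). In *Nts*-/- it was 2.77 without mouse 319 (adjusted p = 0.00317).

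Counted without a test, 4 of the 9 genes were higher in every fasted liver than in every fed liver, namely *Gpat4*, *Agpat3*, *Dgat1* and *Mogat1*, and *Dgat2* was lower in every one. Over all genes, 8.05% were higher and 7.83% lower in this way.

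**Figure D3:**
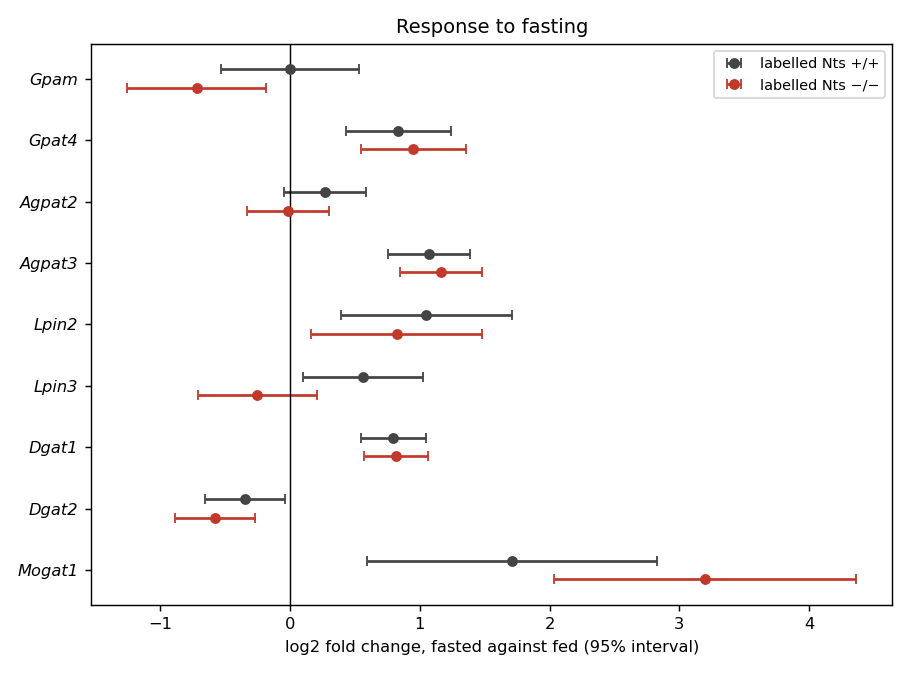
Log2 fold change of fasted against fed livers for each of the 9 genes, in *Nts*+/+ livers and in livers labelled *Nts*-/-, with 95% intervals from the edgeR fit. *Gpat4*, *Agpat3*, *Lpin2*, *Dgat1* and *Mogat1* lie to the right of 0 in both genotypes, *Dgat2* lies to the left, and the intervals of *Agpat2* include 0 in both.

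Other cell types with triglyceride enzymes of their own were looked at through marker lists. Of 6 adipocyte markers, *Lep* and *Retn* were at 0 in every liver. The sum was 0 to 0.0443 CPM in fed and 0.0472 to 0.260 CPM in fasted livers. Of 10 enterocyte markers, *Sis*, *Cdx1* and *Cdx2* were at 0 in every liver, but the sum was higher in fasted livers, at 112 to 148 CPM in *Nts*+/+ and 164 to 212 CPM in *Nts*-/-, than in fed livers, at 43.1 to 96.8 and 51.0 to 57.3 CPM. Most of it was *Fabp2*, at 41.2 to 95.1 CPM in fed and 106 to 203 CPM in fasted livers. *Lgals4* overlapped, at 1.16 to 7.13 and 5.83 to 15.9 CPM. *Vil1* was at 0.0368 to 0.259 CPM in fed and 0.0271 to 0.0992 CPM in fasted livers. *Alpi*, *Muc2*, *Reg3b* and *Reg3g* were at most 0.132 CPM in any liver. Of 7 markers of exocrine pancreas, 4 (*Cpa1*, *Ctrb1*, *Pnlip* and *Amy2b*) were at 0 in every liver. The sum was 7.66 to 13.7 CPM in fed and 3.06 to 5.64 CPM in fasted livers. Nearly all of this sum was *Cela1*, at 7.49 to 13.3 CPM in fed and 2.66 to 5.45 CPM in fasted livers. *Cela2a* overlapped, at 0.161 to 0.443 and 0.0949 to 0.407 CPM, and *Prss2* was at most 0.0362 CPM. The sum of 6 cholangiocyte markers was 33.5 to 49.9 CPM in fed and 13.8 to 29.7 CPM in fasted livers. Most of that sum was *Spp1*, at 27.6 to 43.5 CPM in fed and 10.7 to 25.4 CPM in fasted livers. *Sox9* overlapped, and *Krt7*, *Krt19*, *Epcam* and *Cftr* were at most 1.56 CPM in any liver. The sum of 6 markers of sinusoidal endothelium was 144 to 208 CPM in fed and 124 to 151 CPM in fasted livers. *Clec4g* was lower in every fasted than in every fed liver. *Lyve1* was at 5.63 to 6.87 CPM in fed and 13.5 to 14.1 CPM in fasted *Nts*+/+ livers, and overlapped in *Nts*-/- livers. None of these 6 cholangiocyte and 6 endothelial markers was at 0 in every liver. The sum of 7 Kupffer cell markers was 485 to 556 CPM in fed and 246 to 424 CPM in fasted *Nts*+/+ livers. In *Nts*-/- livers it was 300 to 426 CPM in fed and 307 to 482 CPM in fasted mice. Fed livers of the 2 labels did not overlap in this sum. Of its markers *Clec4f*, *Cd5l*, *Vsig4*, *Marco* and *Timd4* did not overlap either, while *Adgre1* and *Csf1r* did. Over all genes, 4.81% were higher and 5.85% lower in fed *Nts*-/- livers without overlap. The sum of 7 stellate cell markers was 278 to 300 CPM in fed and 223 to 252 CPM in fasted *Nts*+/+ livers, and 245 to 325 and 222 to 243 CPM in *Nts*-/- livers. None of these 7 Kupffer and 7 stellate cell markers was at 0 in every liver. Sums over all livers were 233 to 628 CPM for erythroid cells and 4.13 to 8.62 CPM for lymphocytes. The part of these cells in the differences by feeding or by label was not tested.

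The balance of the paired enzymes was measured as a ratio within each liver, which needs no scaling between libraries. Of the 4 ratios, 3 changed with fasting in an exact two-sided permutation test within genotypes whose 400 arrangements allow no p below 0.005, adjusted over 8 tests. Per kilobase, *Dgat2* was 24.6, 33.1 and 31.9 times as abundant as *Dgat1* in fed and 12.9, 13.3 and 14.3 times in fasted *Nts*+/+ livers, and 29.6, 36.2 and 25.9 times in fed and 11.5, 9.13 and 14.5 times in fasted *Nts*-/- livers. No fasted ratio reached a fed ratio. The log2 ratio of counts fell by 1.26 (exact permutation p = 0.005, adjusted p = 0.0133, n = 6 against 6), a 2.40-fold change. *Agpat2* to *Agpat3*, per kilobase, was 3.52, 3.91 and 3.08 in fed and 2.32, 1.97 and 1.65 in fasted *Nts*+/+ livers, and 3.00, 4.16 and 3.94 in fed and 1.75, 1.56 and 1.55 in fasted *Nts*-/- livers. Again the groups did not overlap, and the log2 ratio fell by 1.00 (exact permutation p = 0.005, adjusted p = 0.0133). *Gpam* to *Gpat4*, per kilobase, was 0.751, 0.609 and 0.435 in fed and 0.337, 0.302 and 0.355 in fasted *Nts*+/+ livers, and 1.15, 1.21 and 0.488 in fed and 0.198, 0.291 and 0.431 in fasted *Nts*-/- livers. *Gpam* exceeded *Gpat4* per kilobase in mice 277 and 303 alone. This log2 ratio fell by 1.21 (exact permutation p = 0.005, adjusted p = 0.0133), and without mouse 284 it fell by 1.07 and did not pass (exact permutation, adjusted p = 0.0533). *Lpin2* to *Lpin3* ranged from 15.6 to 42.8 in fed and from 27.2 to 64.2 in fasted livers, with overlap. The rise of its log2 ratio was 0.77 (exact permutation p = 0.05, adjusted p = 0.1), and it passed without mouse 265 (0.92, adjusted p = 0.02) or mouse 319 (0.98, adjusted p = 0.04).

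**Figure D4:**
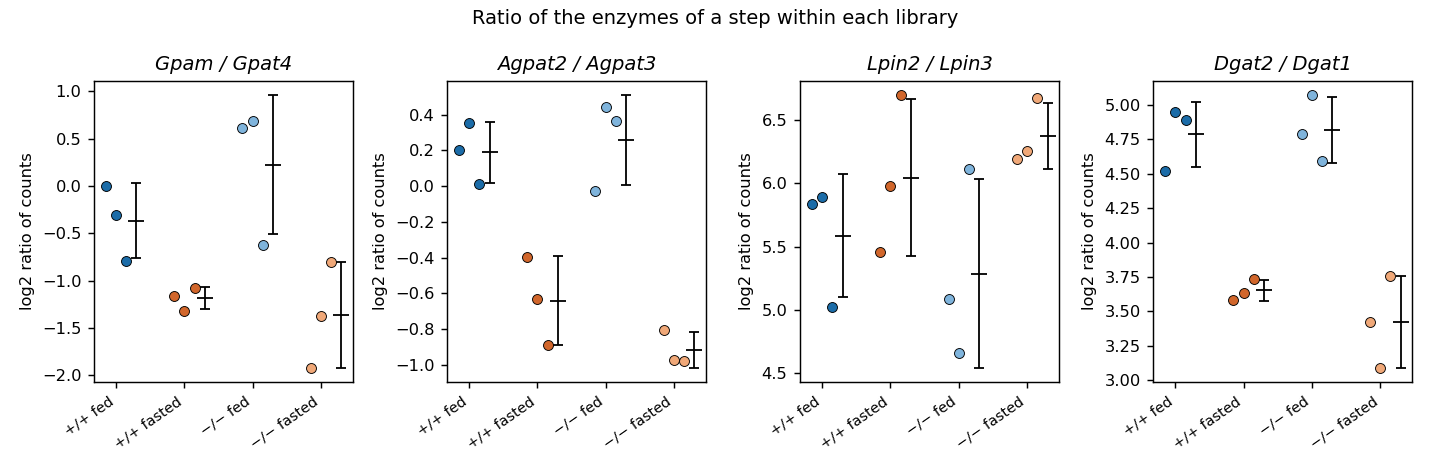
Log2 ratio of the counts of the paired enzymes of each step in each liver, without division by transcript length. Points are mice and groups are genotype and feeding state. Fasted livers sit under fed livers for *Dgat2* to *Dgat1*, *Agpat2* to *Agpat3* and *Gpam* to *Gpat4*, and overlap them for *Lpin2* to *Lpin3*.

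No difference between the genotype labels passed the test for any of the 9 genes. In fed livers 0 of 9 passed the edgeR test in either direction, as did 0% of all genes tested, and 1 of 9 had an unadjusted p under 0.05, against 6.34% of all genes. That gene was *Gpam*, with a log2 difference of 0.58 for labelled *Nts*-/- against *Nts*+/+ (SE 0.25, 95% interval 0.048 to 1.11, adjusted p = 0.765). Without mouse 319 the difference was 0.84 (adjusted p = 0.188), and without mouse 303 it was 0.38. In fasted livers 0 of 9 passed, as did 0% of all genes. There 0 of the 9 had an unadjusted p under 0.05, against 4.96% of all genes, and the smallest adjusted p was 0.917. DESeq2 called 0 of the 9 in both states, and 12 genes in fed and 4 in fasted livers over the whole table. The narrowest intervals were those of *Dgat1*, -0.17 to 0.33 in fed and -0.15 to 0.34 in fasted livers on the log2 scale, and the widest those of *Mogat1*, -2.14 to 0.46 and -0.34 to 1.63. *Mogat1* was also the only one of the 9 whose genotypes did not overlap, in fasted livers, where the lowest of the livers labelled *Nts*-/- had 1.95 CPM and the highest *Nts*+/+ liver 1.80 CPM (log2 difference 0.64, SE 0.46, adjusted p = 0.917). Over all genes, 5.29% were higher and 6.88% lower without overlap in fasted livers, and 4.81% and 5.85% in fed livers.

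**Figure D5:**
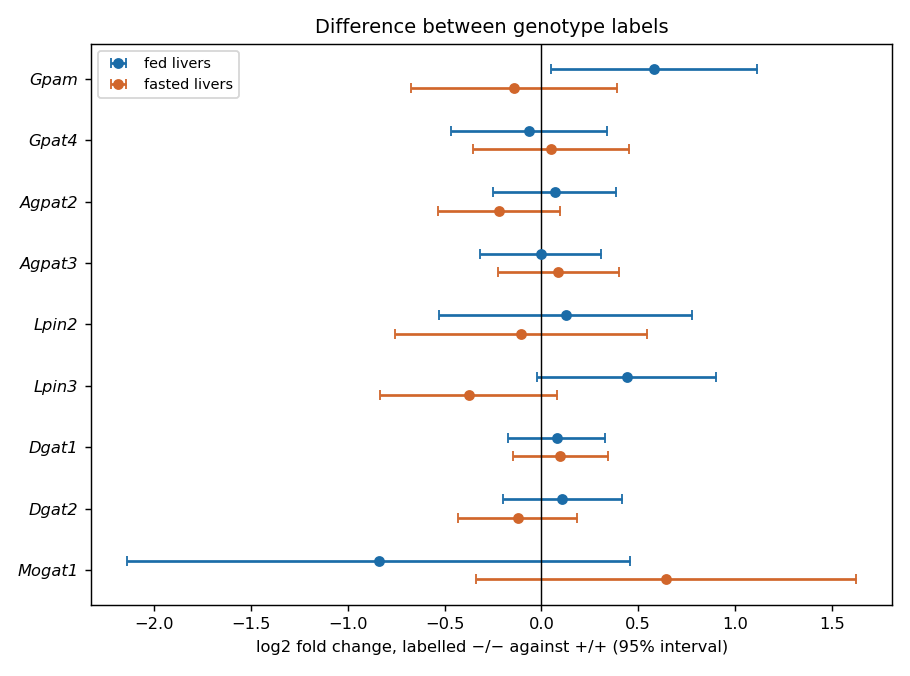
Log2 fold change of livers labelled *Nts*-/- against *Nts*+/+ livers for each of the 9 genes, fed and fasted, with 95% intervals from the edgeR fit. The interval of *Gpam* in fed livers, 0.048 to 1.11, is the only one that leaves out 0 before adjustment.

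The fasting responses of both genotypes were also compared directly. In this interaction 0 of the 9 genes and 0% of all genes passed the edgeR test. DESeq2 called 0 of the 9 and 3 genes in all. An unadjusted edgeR p under 0.05 was found for 1 of the 9, against 4.8% of all genes. That one was *Lpin3*, whose response in *Nts*-/- minus that in *Nts*+/+ was -0.82 (SE 0.30, 95% interval -1.47 to -0.17, adjusted p = 0.897). The difference of responses was -0.72 for *Gpam* (SE 0.35, interval -1.47 to 0.032) and 1.48 for *Mogat1* (SE 0.76, interval -0.14 to 3.11), both with an adjusted p of 0.897. For *Mogat1* it fell to 0.65 without fed mouse 323. For *Agpat3* and *Dgat1* the differences were 0.090 (interval -0.35 to 0.53) and 0.019 (interval -0.33 to 0.37). Ratios of paired enzymes did not pass between genotypes either, with log2 differences of 0.21 for *Gpam* to *Gpat4*, -0.10 for *Agpat2* to *Agpat3*, 0.014 for *Lpin2* to *Lpin3* and -0.099 for *Dgat2* to *Dgat1* (exact permutation, adjusted p from 0.577 to 0.97).

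Other enzymes of glycerolipid synthesis surround the 9 genes. Of 17 such genes 16 were tested, and fasting raised 5 and lowered 1 on average over the genotypes, with a median log2 fold change of 0.26, against 16% of all genes higher, 16.8% lower and a median of -0.0071. *Gpd1*, which makes glycerol-3-phosphate from a glycolytic intermediate, rose by 1.13 (SE 0.13, adjusted p = 2.80e-05), from 302 ± 22.2 to 609 ± 117 CPM in *Nts*+/+ livers. *Gk*, which makes it from glycerol, rose by 0.93 (SE 0.11, adjusted p = 4.66e-05), from 109 ± 30.1 to 214 ± 6.58 CPM. *Gpd1l*, a relative of *Gpd1* named after its values were seen, had 0.14 (SE 0.087, adjusted p = 0.234). Another acyltransferase of the first step, *Gpat3*, rose by 1.22 (SE 0.15, adjusted p = 6.35e-05), and mitochondrial *Gpat2*, at under 2 CPM in every group mean, fell by 1.35 (SE 0.21, adjusted p = 0.000293). The other called genes, named after their values were seen, were *Lclat1* (0.42) and *Gnpat* (0.27). *Lpin1*, the lipin known as a fasting-induced partner of PGC1α, measured 39.6 ± 15.9 and 119 ± 73.5 CPM in fed and fasted *Nts*+/+ livers and 41.2 ± 7.40 and 79.7 ± 45.3 CPM in *Nts*-/- livers. Its log2 fold change of 1.27 (SE 0.44) did not pass (adjusted p = 0.0552). *Agpat1*, at 5.29 to 6.39 CPM in the group means, had a log2 fold change of 0.25 (SE 0.13, adjusted p = 0.147). In the comparisons of genotype and of responses 0 of the 16 passed with edgeR.

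Enzymes that draw the intermediates away had 3 of 11 genes higher and 1 lower, with a median of 0.20 (16% and 16.8% over all genes). *Chpt1*, which makes phosphatidylcholine from diacylglycerol, rose by 1.15 (SE 0.15, adjusted p = 7.33e-05). *Dgkh* and *Dgkd*, kinases that return diacylglycerol to phosphatidic acid, rose by 1.52 (SE 0.35) and 0.30. *Dgkh* was low, at 0.208 to 0.212 CPM in the fed and 0.573 to 0.660 CPM in the fasted group means. *Cds2*, which commits phosphatidic acid to phosphatidylinositol, fell by 0.48 (SE 0.096, adjusted p = 0.00179). Of 10 genes of triglyceride hydrolysis 3 were called higher and 4 lower, with a median of 0.11 (16% and 16.8% over all genes). *Pnpla2*, the adipose triglyceride lipase, rose by 1.47 (SE 0.11, adjusted p = 1.35e-06) and *Mgll*, which completes the hydrolysis, by 1.50 (SE 0.13). *Pnpla3* fell from 4.34 ± 3.54 to 0.208 ± 0.0824 CPM in *Nts*+/+ livers, and the carboxylesterase *Ces1f* fell by 0.66 (SE 0.13, adjusted p = 0.00186). The others that passed, named after their values were seen, were *G0s2*, an inhibitor of the adipose lipase, at 1.55, and *Ces3a* and *Aadac* at -0.93 and -0.41.

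Genes that package triglyceride into droplets or lipoproteins had 7 of 10 higher and 1 lower, with a median of 1.04, against 16% higher and 16.8% lower over all genes. *Cidec*, a droplet protein that enlarges droplets, went from 0.571 ± 0.553 to 50.6 ± 17.5 CPM in *Nts*+/+ and from 0.371 ± 0.0492 to 54.9 ± 13.8 CPM in *Nts*-/- livers. *Plin5*, which ties droplets to mitochondria, rose by 1.97 (SE 0.16), *Fitm2*, which acts in droplet formation, by 1.21 (SE 0.11) and *Mttp*, which loads triglyceride onto lipoproteins, by 0.97 (SE 0.098). The one that fell, named after its values were seen, was *Tm6sf2* at -0.41 (SE 0.088, adjusted p = 0.003). Among 10 transcription factors known to act on genes of this pathway 3 were higher and 3 lower, with a median of -0.0057 (16% and 16.8% over all genes). *Srebf1*, a driver of lipogenic genes under insulin, fell from 214 ± 96.5 to 28.7 ± 9.89 CPM in *Nts*+/+ and from 236 ± 50.3 to 23.6 ± 5.43 CPM in *Nts*-/- livers. *Mlxipl*, which encodes the glucose-responsive ChREBP, fell by 1.45 (SE 0.17, adjusted p = 6.52e-05). *Ppara*, the fatty acid sensor of the fasted liver, rose by 0.75 (SE 0.15, adjusted p = 0.00207) and *Pparg* by 0.55 (SE 0.14, adjusted p = 0.00987). The remaining calls, named after their values were seen, were *Ppargc1a* at 0.87 and *Usf1* at -0.32. In each of these 4 lists 0 genes passed with edgeR between genotypes or in the difference of responses.

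Across the 12 livers the 9 genes shared patterns only in part. Pearson's r of log2 CPM is given as a description, since it mixes the gap between fed and fasted livers with differences between mice. *Agpat3* and *Dgat1* had r = 0.95 over all livers and 0.022 after each group's mean was removed, so that the likeness lay between the groups. *Gpat4* and *Dgat1* had 0.91 and 0.39. *Dgat1* and *Dgat2* had -0.90 and -0.66. The second value pools the 4 groups and does not hold in each. In fasted *Nts*+/+ livers both genes were highest in mouse 282 and lowest in mouse 322. Among all tested genes, those most like *Agpat3* included *Aqp4* and *Acad11* (0.99 each), and those most like *Dgat1* were *Txnl1* (0.99), *Vwa3b* (0.98) and *Ehhadh* (0.98). *Mogat1* was most like *Plbd1* (0.97), *Cyp2e1* (0.97) and *Cerkl* (0.95), *Gpat4* most like *Rsl1d1*, *Khdrbs3* and *Fam195a* (0.95 each), and *Lpin2* most like *Cebpd* (0.95), *Epb41l4aos* (0.95) and *Rps6kb2* (0.95). *Lpin3* was nearest to *Strn* (0.97), *Cd2ap* (0.94) and *Thada* (0.93). *Dgat2* was nearest to *Ppp1r3b* (0.94), *Mmp19* (0.94) and *Fam149a* (0.94), *Gpam* to *Spag9* (0.94), *Eif2ak2* (0.92) and *Epg5* (0.91), and *Agpat2* to *Taco1* (0.90), *Fmo5* (0.89) and *Gldc* (0.84).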

How the data were processed

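Liver RNA of 12 mice, 3 in each of 4 groups, was sequenced. The authors deposited 1 table of expected counts per gene, estimates that need not be whole and are not scaled between mice. The submitters' processing notes name Trimmomatic, RSEM and the build GRCm38, while the aligner and strand setting are not given in the sources used here. The expected counts were rounded. Genes were filtered (filterByExpr), TMM-normalized and tested with edgeR 4.0.16 (R 4.3.3), which fitted 1 model of 4 group means by robust quasi-likelihood tests. Benjamini-Hochberg adjustment covered all 13812 genes, 1220 of the 48795 in the table have no symbol, and the common coefficient of variation was 0.202. Ratios added 0.5 counts to each gene.

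Lengths are the longest transcript in GENCODE vM39, found for 99.2% of tested genes. They may differ from the transcript the liver uses, so levels between genes are approximate. Replicates of a group differed by 38.5 to 107 per degree of freedom in chi-square tests of their counts, far over sampling noise. On simulated data for fasted against fed in *Nts*+/+ livers, 78 of 99 genes changed 4-fold and 57 of 99 changed 2-fold were recovered among 13599 genes, with 12 calls among unchanged genes. Only these genes were changed, and only in fasted *Nts*+/+ livers, while 2501 genes were called in the real comparison. The rates of recovery therefore need not hold for the real data.

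The 9 genes, the 5 other lists and the marker lists were chosen with earlier results of these data known. Named besides the 9 were up to 4 genes of each list with the smallest p among those called in the mean fasting comparison, *Lpin1*, *Agpat1*, and the 3 genes most correlated with each of the 9, of which 1 is not reported here. *Gpat3* and *Selenoi* were matched through their RefSeq entries. Upstream sequences came from RefSeq, and their exon bases were removed after a match to GRCm39. Alternatives were RLE and upper-quartile normalization, DESeq2 1.42.0, no filter, a minimum of 10 counts per mouse, separate fits of the mice compared, a looser threshold of 0.1, a minimum log2 fold change of 1 in size, 2 counts added in ratios, and leaving out each mouse.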

Additional observations from a re-analysis of the deposited data

How the results depend on the processing

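Requiring also a log2 fold change of 1 or more in size left 3 genes higher in *Nts*+/+ livers, 2 higher and 0 lower in *Nts*-/- livers, and 2 higher and 0 lower in the mean of both, which follows from the added limit. The count of genes lower in *Nts*-/- livers was 2 at an adjusted p under 0.1 and 2 with DESeq2, the second being *Gpam*. Leaving out each mouse in turn gave 3 to 5 genes higher in *Nts*+/+, with 3 without mouse 254, 257 or 282. It gave 0 to 2 lower in *Nts*-/-, with 0 without mouse 303, 284 or 290 and 2 without mouse 319, and 1 to 2 lower in the mean. With at least 10 counts in every mouse *Mogat1* was not tested. The 5 rises and the fall of *Dgat2* in the mean of both genotypes passed in every other fit run. Over all genes, calls on fasting numbered 2501 in *Nts*+/+ and 2326 in *Nts*-/- livers, and leaving out 1 mouse gave 1224 to 2770 and 1358 to 2631. With the limit on size they were 911 and 915, and 1082 of 4524 in the mean.

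Among ratios, leaving out 1 mouse gave fasting differences of -1.42 to -1.07 for *Gpam* to *Gpat4* and 0.61 to 0.98 for *Lpin2* to *Lpin3*, and a genotype difference of -0.19 to 0.18 for *Lpin2* to *Lpin3*, whose sign changed in 5 of the 12 fits. Small effects that had not passed also changed sign when 1 mouse was left out. On fasting these were *Gpam* in *Nts*+/+ (-0.15 to 0.16) and *Agpat2* in *Nts*-/- (-0.056 to 0.042). Between genotypes they were *Gpat4* (-0.20 to 0.059), *Agpat3* (-0.11 to 0.11) and *Lpin2* (-0.12 to 0.34) in fed livers, and *Gpat4* (-0.072 to 0.24) and *Lpin2* (-0.37 to 0.14) in fasted livers. In the difference of responses they were *Gpat4* (-0.010 to 0.30), *Agpat3* (-0.025 to 0.20), *Dgat1* (-0.068 to 0.075) and *Lpin2* (-0.50 to 0.016). *Gpam* in *Nts*+/+ was also -0.037 with upper-quartile normalization and -0.010 with at least 10 counts in every mouse. For these changes of sign the cause was not tested.

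No paired analysis was possible because no mouse numbers are shared between groups and the labels do not give the litter of each mouse. With 3 mice a group, the absence of a genotype call does not show that levels were equal, and for *Mogat1* and *Lpin3* low counts add to the error.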
